A study of Mus musculus with 10 samples.

Results

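The YAP and TAZ pathway was followed through 10 of its genes: Yap1, Wwtr1, Tead1, Lats2, Ajuba, Amotl2, Cyr61, Ctgf, Ankrd1 and Axl. They were looked up by symbol, under the older names Cyr61 and Ctgf, in a table of 39017 genes, where each symbol had 1 row, and all 10 passed the filter on low counts that left 15922 genes. The list was chosen on measured values of the same contrast, with the levels of these genes in the 10 libraries already known. The group differences of the 10 genes are therefore a description. Nothing is read from the intervals or test calls printed for them.

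RNA was sequenced from lung tumours of mice on a C57BL6/J background (strain label C57BL/6), 5 libraries from KP controls and 5 from KPG1 animals labelled Glut1-KO. KP mice carry, among other alleles, Trp53 with both copies floxed, and KPG1 mice are also floxed at both copies of Slc2a1, which encodes the glucose transporter Glut1. The genotype label of the controls is heterozygous fl/wt at that gene, while the design text calls them Glut1-WT. All mice of both groups received Ad5CC10-Cre into the trachea, an adenovirus that restricts Cre to cells positive for CC10, a marker of bronchiolar club cells. Tumours were taken 20 weeks and 1 day later and dissociated, and immune cells were removed with beads against CD45. The controls were all labelled male, whereas the Glut1-KO group holds females (replicates 1 to 3) and males (replicates 4 and 5) by its labels.

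YAP (Yap1) and TAZ (Wwtr1) are transcriptional coactivators that respond to cell contact, cell shape and matrix stiffness. Kinases of the hippo cascade phosphorylate them and hold them in the cytoplasm. Once in the nucleus they bind DNA through TEAD factors and switch on genes such as Cyr61, Ctgf and Ankrd1. In the lung they are known for roles in regeneration of the alveolar epithelium and in tumour growth.

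Libraries held between 35.3 M and 49.8 M counts (M, mega), and levels are given as CPM, counts per M counts after TMM scaling. Slc2a1 itself averaged 94.8 ± 16.9 CPM among controls against 66.5 ± 30.1 CPM under the Glut1-KO label (SD, n = 5 each), a difference that did not pass the test (log2 fold change -0.62, SE 0.29, adjusted p 0.658 by limma). The 3 female libraries labelled Glut1-KO had 34.6 to 60.3 CPM of Slc2a1, below every control (73.2 to 118 CPM), and the male pair had 92.4 and 103 CPM, within the control range. Directions below therefore rest on the labels, and sex and loss of Slc2a1 RNA cannot be told apart in the 3 low libraries. Among all 15922 genes, limma called 0 at an adjusted p under 0.05 (0% lower), against 583 higher and 640 lower at an unadjusted p under 0.05. The quasi-likelihood test of edgeR also called 0, and DESeq2 called 110 higher and 105 lower. Libraries were treated as independent, although no label ties them to animals, so the spread between them may in part be technical. A number in the deposited names that could mark the mouse takes 2 values over the 5 controls (shared by replicates 1, 2 and 5, and by 3 and 4) and 4 over the Glut1-KO group, where the male pair shares one. If it does, n = 5 overstates the number of animals. In bulk RNA, fewer cells of a type and less RNA per cell cannot be told apart.

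TEAD factors recognise the letters GGAATG, which read CATTCC on the other strand. Promoter windows of 250 bases before the transcription start came from RefSeq (GRCm38.p6) and were found for 8 of the 10 genes, with none for Ctgf and Tead1. In 7 of the 8 (all but Lats2) at least 1 window held the motif on either strand, and it occurs in 12.6% of all 32851 windows of this length. The AP-1 letters TGANTCA, which read the same on both strands, occur in 6.75% of all windows and the CArG box of SRF in 1.47%, and neither was found in the windows of these 8 genes. A match of letters is no evidence of binding. Windows that lie outside annotated exons are shown for a secreted target (Cyr61), a receptor (Axl) and TAZ itself (Wwtr1), so that target and coactivator promoters can be read side by side. The capitals mark the motif. The Cyr61 window is chr3:145649986-145650235, the Axl window chr7:25788734-25788983 and the Wwtr1 window chr3:57575911-57576160, all on the minus strand.
Cyr61: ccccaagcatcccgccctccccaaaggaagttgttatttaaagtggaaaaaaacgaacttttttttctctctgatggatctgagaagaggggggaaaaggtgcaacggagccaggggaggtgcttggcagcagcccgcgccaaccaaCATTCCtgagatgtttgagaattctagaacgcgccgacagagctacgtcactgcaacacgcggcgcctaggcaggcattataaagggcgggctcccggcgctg
Axl: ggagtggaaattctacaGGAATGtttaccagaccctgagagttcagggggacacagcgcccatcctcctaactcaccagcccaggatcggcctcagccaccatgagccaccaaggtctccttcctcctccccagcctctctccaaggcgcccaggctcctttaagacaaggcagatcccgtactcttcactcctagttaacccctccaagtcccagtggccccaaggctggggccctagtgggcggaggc
Wwtr1: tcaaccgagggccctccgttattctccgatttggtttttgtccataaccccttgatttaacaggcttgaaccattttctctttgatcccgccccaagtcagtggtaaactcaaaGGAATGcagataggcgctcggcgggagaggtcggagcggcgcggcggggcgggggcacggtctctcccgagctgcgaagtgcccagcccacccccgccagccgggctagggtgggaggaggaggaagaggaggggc
The motif begins 103 bases before the start in Cyr61, 233 in Axl and 136 in Wwtr1.

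In Ankrd1, Amotl2 and Yap1 annotated exons reach into the window, so 30 bases around each motif are shown, again with the motif in capitals. Ankrd1 was 1 of 2 genes, with Ajuba, whose window held the motif at 2 positions. The Ankrd1 sites are chr19:36120037-36120066 and chr19:36119950-36119979 on the minus strand, the Amotl2 site is chr9:102717727-102717756 on the plus strand, and the Yap1 site is chr9:8004720-8004749 on the minus strand.
Ankrd1 distal: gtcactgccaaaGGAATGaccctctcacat
Ankrd1 proximal: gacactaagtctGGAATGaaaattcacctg
Amotl2: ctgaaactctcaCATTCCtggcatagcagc
Yap1: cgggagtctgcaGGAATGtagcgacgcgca

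The coactivators and their DNA-binding partner had nearly the same RNA level in both groups. Yap1 (ENSMUSG00000053110, chromosome 9, 7931999 to 8004596, minus strand, GRCm38) stood at 141, 138, 111, 135 and 118 CPM in control replicates 1 to 5. In Glut1-KO replicates 1 to 5 it stood at 152, 112, 106, 140 and 140 CPM. The ranges overlap, with 1 library labelled Glut1-KO below and 1 above every control, and the means were 129 ± 13.6 and 130 ± 19.7 CPM (SD, n = 5 each). The log2 fold change of Yap1 was 0.01 (SE 0.13, 95% interval -0.27 to 0.29).

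TAZ gave the same picture. Wwtr1 (ENSMUSG00000027803, chromosome 3, 57455649 to 57575910, minus strand) had 101, 88.2, 99.9, 74.8 and 85.5 CPM in controls. The libraries labelled Glut1-KO had 94.8, 112, 97.3, 83.6 and 97.3 CPM. Only Glut1-KO replicate 2 lay above every control, and the log2 fold change was 0.11 (SE 0.12, 95% interval -0.14 to 0.37). Tead1 (ENSMUSG00000055320, chromosome 7, 112679318 to 112906807, plus strand), which supplies the DNA-binding domain, ran from 109 to 138 CPM in controls with a median of 117 CPM. It ran from 91.4 to 128 CPM with a median of 116 CPM in the libraries labelled Glut1-KO, at a log2 fold change of -0.13 (SE 0.12, 95% interval -0.40 to 0.13).

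Of the regulators that act on YAP and TAZ in the cytoplasm, Lats2 differed little, and Ajuba differed less than Amotl2 over all libraries. Lats2 (ENSMUSG00000021959, chromosome 14, 57689662 to 57758388, minus strand), the kinase that phosphorylates both coactivators, had 39.1, 30.7, 42.0, 37.0 and 38.6 CPM in controls. In the libraries labelled Glut1-KO it had 44.8, 38.1, 53.1, 32.5 and 31.7 CPM. The 3 female libraries (38.1 to 53.1 CPM) were above the male pair, and the log2 fold change of 0.08 (SE 0.16) became -0.21 when male libraries alone were compared. It was -0.03 without Glut1-KO replicate 3 and 0.01 without control replicate 2. Ajuba (ENSMUSG00000022178, chromosome 14, 54567472 to 54577558, minus strand), a LIM protein that binds LATS kinases, had 59.4, 72.1, 40.5, 47.2 and 64.2 CPM in controls. The libraries labelled Glut1-KO had 47.9, 40.8, 47.1, 41.0 and 51.9 CPM, all within the control range, at a log2 fold change of -0.29 (SE 0.16).

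Amotl2 (ENSMUSG00000032531, chromosome 9, 102716672 to 102733418, plus strand), an angiomotin family protein that binds YAP and is itself a YAP target, was lower in 4 of the 5 libraries labelled Glut1-KO than in any control. Controls had 46.6, 64.3, 58.0, 70.4 and 59.0 CPM. The libraries labelled Glut1-KO had 46.0, 43.2, 39.4, 37.3 and 55.9 CPM. Replicate 5 was the exception, inside the control range. The group means of 59.7 ± 8.80 and 44.4 ± 7.26 CPM (SD, n = 5 each) gave a log2 fold change of -0.43 (SE 0.14).

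**Figure D1:**
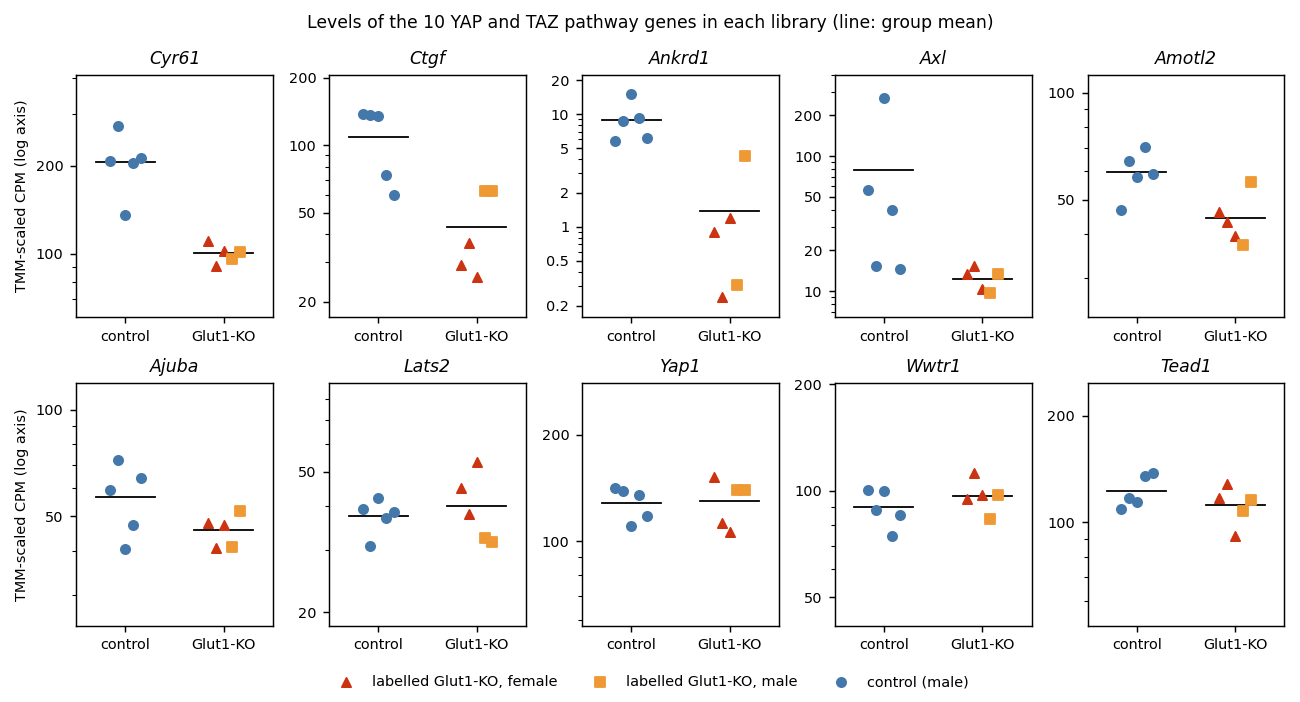
TMM-scaled CPM (log axis) of each of the 10 genes in the 5 control and 5 Glut1-KO libraries, 1 point per library with the group mean as a line and its own axis range in each panel. The 2 groups do not overlap for Cyr61 and Ankrd1, and Ctgf is lowest in the 3 female libraries.

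Cyr61, Ctgf, Ankrd1 and the receptor gene Axl had the largest fold differences of the 10. Cyr61 (ENSMUSG00000028195, chromosome 3, 145646976 to 145649981, minus strand), a matrix-associated protein that binds integrins, had 208, 274, 136, 204 and 212 CPM in controls. The libraries labelled Glut1-KO had 110, 91.0, 102, 95.7 and 101 CPM. Every library labelled Glut1-KO was below the lowest control, female and male alike. The means were 207 ± 49.1 and 100.1 ± 7.32 CPM (SD, n = 5 each), and the log2 fold change was -1.01 (SE 0.16, 95% interval -1.37 to -0.65). It was -1.03 with male libraries alone and -0.99 with the female Glut1-KO libraries alone.

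Ctgf (ENSMUSG00000019997, chromosome 10, 24595442 to 24598683, plus strand), the sister gene of Cyr61 and also a secreted matrix protein, split both groups. Control replicates 1, 2 and 3 had 138, 136 and 134 CPM, and control replicates 4 and 5 had 73.8 and 59.7 CPM. The female libraries labelled Glut1-KO had 29.3, 36.4 and 25.7 CPM, and the male libraries 62.8 and 62.1 CPM. The 3 female libraries were below all controls, whereas the male pair exceeded control replicate 5. The log2 fold change was -1.35 (SE 0.33) over all libraries, -1.76 with the female Glut1-KO libraries alone and -0.71 with male libraries alone. The 3 libraries lowest in Ctgf were the 3 lowest in Slc2a1.

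Ankrd1 (ENSMUSG00000024803, chromosome 19, 36111961 to 36120099, minus strand), an ankyrin repeat protein of the nucleus and of muscle sarcomeres, had the largest of these. Controls had 5.72, 8.71, 14.99, 9.18 and 6.20 CPM. The libraries labelled Glut1-KO had 0.901, 0.238, 1.19, 0.307 and 4.26 CPM. No library of one group reached the other, although replicate 5 stood well above the other 4 and close to the lowest control. Between 10 and 607 reads were counted per library, so the lowest values carry wide counting error. The log2 fold change was -3.33 (SE 0.61) by limma and -2.70 by DESeq2.

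Axl (ENSMUSG00000002602, chromosome 7, 25757273 to 25788705, minus strand), the receptor tyrosine kinase for Gas6, varied most among controls. Controls had 56.3, 15.2, 268, 40.1 and 14.6 CPM, and the libraries labelled Glut1-KO 13.3, 15.3, 10.3, 9.66 and 13.3 CPM. Control replicates 2 and 5 were at the level of the libraries labelled Glut1-KO, and replicate 3 stood far above all others. The log2 fold change of -1.76 (SE 0.80) became -1.08 without control replicate 3 and was -2.67 by edgeR and DESeq2.

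**Figure D2:**
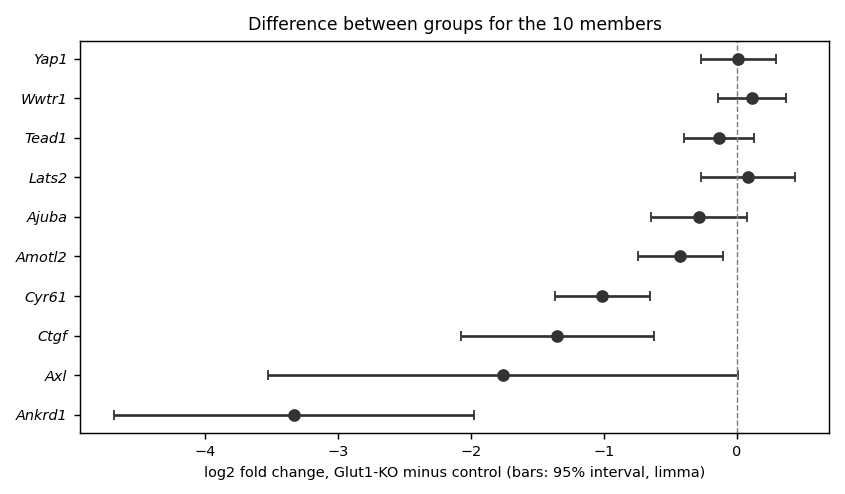
Log2 fold change of the 10 genes (Glut1-KO minus control, limma), with bars for the 95% interval. Yap1, Wwtr1, Tead1 and Lats2 lie near 0, while Cyr61, Ctgf, Axl and Ankrd1 lie at -1.01, -1.35, -1.76 and -3.33.

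In all, 7 of the 10 genes had a negative and 3 a positive log2 fold change, with a median of -0.36 against 0.00 (-0.0049) for all genes tested. At an unadjusted p under 0.05 limma gave 4 of the 10 as lower (Cyr61, Ctgf, Ankrd1 and Amotl2), where 4.02% of all genes were. DESeq2 at an adjusted p under 0.05 gave 4 (Cyr61, Ctgf, Ankrd1 and Axl), where 0.659% of all genes were. Groups that did not overlap, with the Glut1-KO side lower, were seen for 2 of the 10 (Cyr61 and Ankrd1), against 1.06% of all genes. Since this contrast served to choose the 10 genes, these calls are no test of them, and nothing is read from the calls or the shares. Leaving out single libraries brought in 1 more such gene: Amotl2 without control replicate 1 or Glut1-KO replicate 5, Ctgf without control replicate 5, and Axl without Glut1-KO replicate 2.

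Per kb of exon, the levels in controls spanned from the secreted targets to the nuclear one. Cyr61 led with 102 ± 24.3 CPM per kb, followed by Ctgf with 37.9 ± 13.4 and Wwtr1 with 18.8 ± 2.27 (SD, n = 5 each). Axl (15.7), Ajuba (15.5), Yap1 (13.9), Amotl2 (9.49), Tead1 (9.06), Lats2 (5.37) and Ankrd1 (3.10 CPM per kb) came after. Only 3 neighbours in this order had ranges that did not overlap: Cyr61 above Ctgf, Yap1 above Amotl2 and Tead1 above Lats2. In the libraries labelled Glut1-KO, Cyr61 still led (49.6 CPM per kb), Wwtr1 (20.3) stood above Ctgf (15.1), and Axl, the fourth in controls, was the ninth (2.46). The control level of Axl (15.7 ± 21.3 CPM per kb) rests on control replicate 3. Without it, an alternative added after the data were seen, Axl had 6.27 ± 4.04 CPM per kb (SD, n = 4) and was the eighth. Lengths are those of all exons joined, and the longest transcript in place of that put Yap1 at 24.3 CPM per kb, in the third place.

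**Figure D3:**
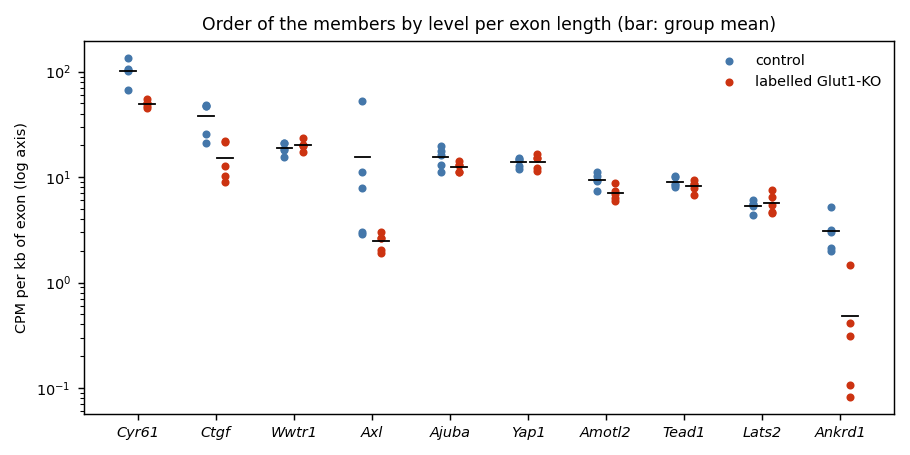
CPM per kb of exon (log axis) for the 10 genes in falling order of their control mean, with 1 point per library and a bar for the group mean. Cyr61 leads in both groups, and Ankrd1 is lowest in both.

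The 10 genes did not move as 1 block from library to library. Correlations of log2 CPM are given over the 10 libraries (n = 10), which share depth and cell makeup within each library, and as a description only. Cyr61 and Ctgf had r = 0.67 over all libraries but -0.14 once group means were subtracted. Cyr61 and Ajuba kept together within groups (r = 0.79 over all libraries, 0.87 within groups). Without the 2 libraries farthest from the median Cyr61 level, their r was 0.53, with group means not subtracted. Axl went against both within groups (r = -0.86 with Cyr61 and -0.78 with Ajuba), where r over all libraries was 0.28 and -0.19. Ankrd1 and Amotl2 had r = 0.84 over all libraries and 0.60 within groups. Control replicate 3 had the lowest Cyr61 and Ajuba of the controls and the highest Axl and Ankrd1.

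Other genes of the pathway were counted in 4 lists, with 0 genes of any list called by limma at an adjusted p under 0.05. The lists were chosen with earlier results of these data known, so their counts are a description. Over all 15922 genes, 50.7% had a negative log2 fold change. Of 17 hippo kinases and adaptors, 11 had a positive and 6 a negative log2 fold change (median 0.05). Nf2, the membrane scaffold that switches on the cascade, averaged 86.8 ± 9.80 CPM among controls against 70.1 ± 10.8 CPM under the Glut1-KO label (SD, n = 5 each, here and for the genes that follow). Its log2 fold change was -0.31 (SE 0.13). Dchs1, an atypical cadherin, went the other way with 4.35 ± 2.43 and 7.59 ± 2.90 CPM (log2 fold change 0.92, SE 0.39). Lats1 (-0.19) and Mob1a (0.18), the partner kinase of Lats2 and its coactivator, came next by p.

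Of 16 partners and inhibitors of YAP and TAZ, 7 had a positive and 9 a negative log2 fold change (median -0.01). Rassf1, a scaffold of the hippo kinases, stood at 33.6 ± 4.26 and 26.9 ± 4.19 CPM, and Amotl1, the nearest relative of Amotl2, at 48.6 ± 10.2 and 37.4 ± 2.96 CPM. Their log2 fold changes were -0.33 (SE 0.14) and -0.35 (SE 0.16). The junction genes Tjp1 (0.14) and Crb3 (0.21) lay slightly above controls.

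Of 16 further targets of YAP and TAZ, 12 had a negative and 4 a positive log2 fold change. Their median of -0.12 was -0.21 with sex as a covariate, -0.24 with female Glut1-KO libraries only and -0.04 with the TPM filter of the study. Leaving out single libraries gave -0.05 (control replicate 1), -0.08 (control replicate 4), -0.25 (control replicate 5), -0.24 (Glut1-KO replicate 4) and -0.23 (Glut1-KO replicate 5), and -0.12 to -0.15 for the others. Fjx1, a secreted glycoprotein gene, had the largest fold difference of this list, with 3.94 ± 1.21 CPM among controls against 1.398 ± 0.977 CPM under the Glut1-KO label. Its log2 fold change was -1.68 (SE 0.42), with overlapping groups. Gadd45a, a growth arrest gene, stood at 61.2 ± 10.9 and 40.6 ± 14.3 CPM (log2 fold change -0.68, SE 0.26). Asap1 (-0.52) and Dock5 (0.28), both regulators of small GTPases, followed. The abundant target Myof had 613 ± 133 and 612 ± 226 CPM, and was chosen for naming after its values were seen.

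SRF, which also responds to the actin cytoskeleton, shares targets with YAP. Of 12 SRF and cytoskeleton targets, 10 had a negative and 2 a positive log2 fold change. The median of -0.11 turned to 0.09 with sex as a covariate and with male libraries only, and was -0.23 with female Glut1-KO libraries only. Leaving out single libraries gave -0.21 (Glut1-KO replicate 4), -0.05 (Glut1-KO replicate 2 or 3), and -0.07 to -0.14 for the others. Of the 12 genes, 0 reached an unadjusted p under 0.05 with limma or an adjusted p under 0.05 with DESeq2. Filip1l (-0.62) and Flna (-0.47), a filamin-interacting protein gene and the actin crosslinker filamin A, were lowest, followed by p by Tpm1 (-0.23) and Vcl (-0.15).

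Immediate-early genes, which respond within minutes to serum, stretch and tissue dissociation, include the AP-1 partners of YAP and TEAD. Of 20 such genes 19 had a negative log2 fold change and 0 passed the adjusted threshold with limma. The median was -0.41, and -0.71 with sex as a covariate or male libraries only. Lower values were given for 9 genes at an unadjusted p under 0.05 with limma (4.02% of all genes), for 5 at an adjusted p under 0.05 with DESeq2 (0.659%) and for 4 as groups that did not overlap (1.06%). This list too was chosen with earlier results of these data known, so the counts are a description and no test of it. Atf3 averaged 310 ± 73.7 CPM among controls against 160 ± 20.7 CPM under the Glut1-KO label (log2 fold change -0.94, SE 0.17). Klf4 (-0.93), Klf6 (-0.90) and Jun (-0.74) followed. The summed level of the 20 genes ran from 7352 to 9287 CPM among controls and from 4608 to 7369 CPM under the Glut1-KO label. Its lowest values, 4608 and 5109 CPM, came from Glut1-KO replicates 5 and 4, both male, where Cyr61 had 101 and 95.7 CPM. The correlation of Cyr61 with this sum was 0.55 over all libraries (n = 10, a description), and 0.55 without the 2 libraries farthest from the median. Within groups it was -0.34, or -0.16 by rank. Control replicate 3 had the highest sum and the lowest Cyr61 of the controls. For Ankrd1 the correlation was 0.48 over all libraries and -0.31 within groups, and for Axl 0.61 and 0.29. The part of these genes in the Cyr61 and Ankrd1 differences was not tested.

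**Figure D4:**
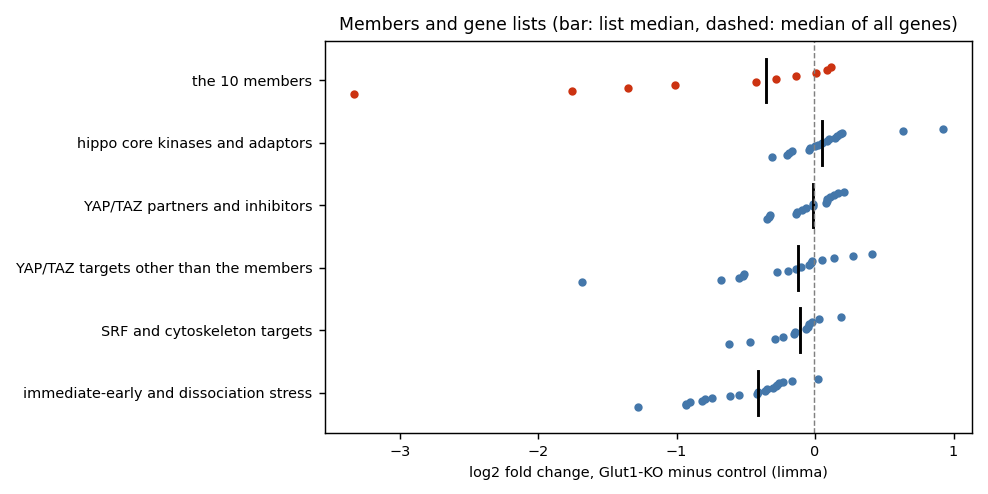
Log2 fold changes (Glut1-KO minus control, limma) of the 10 genes and of the 5 lists, 1 point per gene, with the list median as a bar and the median of all genes as a dashed line. The hippo list centres at 0.05 and the immediate-early list at -0.41.

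Markers of other cell types were read beside these genes, and limma called 0 of them at an adjusted p under 0.05. As the marker lists were chosen with earlier results of these data known, their counts and calls are a description. All 10 leukocyte markers had a positive log2 fold change, 6 of them with groups that did not overlap (0.798% of all genes were higher without overlap), and DESeq2 called 6 as higher (0.691% of all genes). Their summed level was 315 to 460 CPM among controls and 337 to 609 CPM under the Glut1-KO label, after the removal of CD45-positive cells. Lcp1 held most of it (277 to 426 and 299 to 528 CPM). All 12 endothelial markers had a positive log2 fold change (sums of 151 to 543 and 258 to 717 CPM, led by Vwf). All 10 ciliated markers had a negative one (sums of 6.33 to 198 and 5.93 to 30.8 CPM, led by Foxj1), and DESeq2 called 1, Foxj1, as lower (adjusted p 0.0076). The Foxj1 groups overlapped, with 1.74 to 54.9 CPM among controls and 1.20 to 7.13 CPM under the Glut1-KO label. The ciliated sum of 198 CPM came from control replicate 5, and the other controls had 6.33 to 63.7 CPM. Fibroblast markers, cells that also make much Ctgf, summed to 125 to 379 CPM among controls and 92.8 to 410 CPM under the Glut1-KO label, led by Col3a1, and 8 of the 9 tested had a negative log2 fold change. All 12 were detected, as were all markers of the other lists.

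The correlation of Ctgf with the fibroblast sum was 0.84 within groups, 0.61 over all libraries and 0.47 without the 2 libraries farthest from the median (n = 10, a description). With the mesothelial sum it was 0.63 within groups and 0.71 over all libraries, and with the leukocyte sum -0.52 and -0.72. Within groups it was also -0.63 with the ciliated, -0.61 with the immediate-early and 0.56 with the epithelial sum. Over all libraries these were 0.08, 0.30 and 0.39. Smooth muscle and pericyte markers summed to 58.1 to 117 and 64.3 to 161 CPM (led by Acta2) and mesothelial markers to 58.7 to 360 and 68.4 to 191 CPM. Msln alone made up 54.7 to 348 and 66.6 to 186 CPM of the mesothelial sum, so that sum is close to the level of a single gene. Epithelial RNA was present in every library. Epithelial markers summed to 4693 to 6731 and 3661 to 9540 CPM (led by Cdh1), AT2 markers to 26494 to 73378 and 49357 to 67214 CPM (led by Sftpc), and club markers to 2045 to 11966 and 3149 to 9467 CPM (led by Scgb1a1, the gene of CC10). Of the tested markers, 9 of 10 for AT2 had a positive log2 fold change (median 0.28) and 6 of 8 for club cells a negative one (median -0.75). Cyr61 had r = -0.65 with the endothelial sum and -0.58 with the AT2 sum over all libraries (n = 10, a description). Within groups these were -0.69 and -0.76. Without the 2 libraries farthest from the median, the values over all libraries were -0.27 and -0.17. Wwtr1 had r = 0.71 with the endothelial sum over all libraries and 0.66 within groups (n = 10, a description). Without the 2 libraries farthest from the median Wwtr1 level, r was 0.75. The part of cell makeup in the differences of the 10 genes was not tested.

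**Figure D5:**
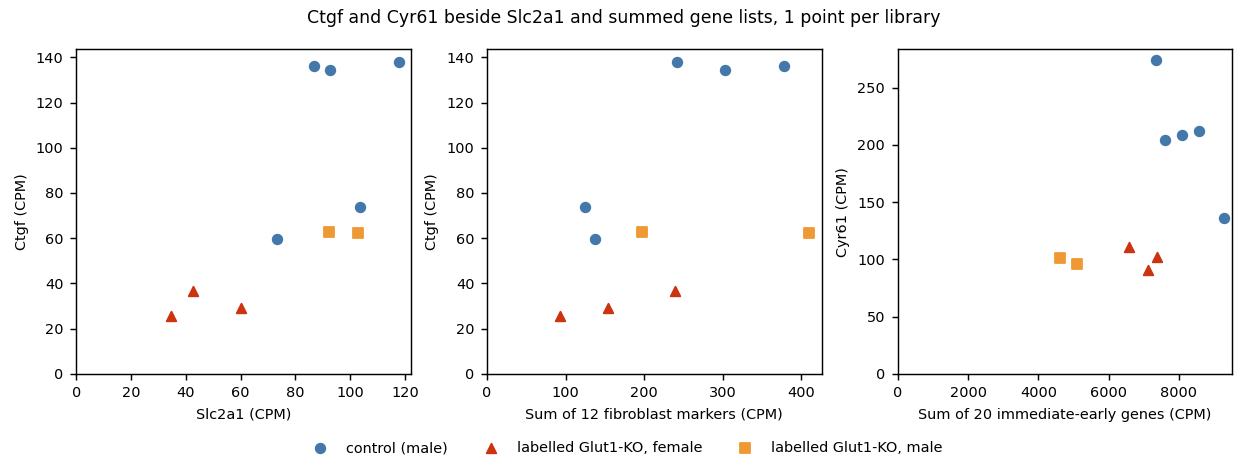
Ctgf against Slc2a1, Ctgf against the sum of 12 fibroblast markers and Cyr61 against the sum of 20 immediate-early genes, all in CPM on linear axes with 1 point per library. The 3 female libraries labelled Glut1-KO hold the 3 lowest Ctgf and Slc2a1 levels. In the 5 libraries labelled Glut1-KO, Cyr61 runs from 91.0 to 110 CPM and the immediate-early sum from 4608 to 7369 CPM.

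Genes with the most similar profile to 5 of the targets were sought among 13848 genes outside the list with a mean of at least 1 CPM, by Pearson r of log2 CPM over the 10 libraries (n = 10, which share depth and the group difference, as a description). Cyr61 was closest to Fbxo30 (0.92), Wrap53 (0.91) and Aatf (0.89), but these fell to between 0.33 and 0.55 within groups. Ctgf was closest to Cbfb, Sf3a3 and Grem1 (each 0.94, and 0.88 to 0.90 within groups). Ankrd1 was closest to Fxr2 (0.94), Llgl1 (0.93) and Ankrd13b (0.93), and Amotl2 to Parp6 (0.96), Cbx8 (0.95) and Pip5k1c (0.94). Axl was closest to Bdnf (0.95), Dhh (0.94) and Ccbe1 (0.93). Without the 2 libraries farthest from the median Axl level, these were between 0.67 and 0.83. When neighbours were sought on deviations from the group means, 0 of the 3 remained for each of the 5 targets. The 3 neighbours of Axl average under 5 CPM each.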

How the data were processed

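RNA of the CD45-negative fraction was measured in 10 libraries. The authors made stranded mRNA libraries, sequenced single-end reads, and per the labels trimmed with Cutadapt (version 1.4.2 in the submitters' processing notes), aligned to mm10 with HISAT2 and counted with featureCounts 1.4.4. Strand settings and annotation release are not given in the sources used here, so overlapping antisense genes could share reads. The deposited values are raw counts per gene, with no normalization. The combined table equalled the single files, and a deposited table of log2 values was not used.

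Counts were filtered with edgeR 4.0.16 filterByExpr (minimum count 10, minimum total 15), scaled by TMM, and fitted with voom (prior count 0.5) and limma 3.58.1 under R 4.3.3. The group was the only term. The study also names TMM, voom and limma, but it filtered on TPM and states no terms of its model. P-values are 2-sided and adjusted by Benjamini-Hochberg over 15922 genes (threshold 0.05). Slc2a1 was also tested by a 2-sided exact permutation test over 252 assignments (p = 0.111, and 0.00794 is the smallest possible). Lengths and positions came from GENCODE M21 on GRCm38. Depth was 35.3 M to 49.8 M counts (M, mega) per library.

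Groups came from the labels. The members, gene lists and tests were chosen with earlier results of these data known. Named were the 10 members, Slc2a1, the 4 genes with the smallest limma p in each pathway list, the marker with most counts in each list, and the 3 genes most similar to Cyr61, Ctgf, Ankrd1, Amotl2 and Axl. Pals1 was entered as Mpp5 and Cfap43 as Wdr96, and Ptpn14 is in 2 lists. Alternatives were other scalings and filters, edgeR, DESeq2 1.42.0, sex, blocks and single libraries left out.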

Additional observations from a re-analysis of the deposited data

Results flagged for a closer look

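In 22 groups of 5 libraries, 2 held a library far from the other 4, where chance gives about 1.1. Ankrd1 in Glut1-KO replicate 5, a male library, had 4.26 CPM, where the other 4 libraries of that label had 0.238 to 1.19 CPM. Axl in control replicate 3 had 268 CPM, against 14.6 to 56.3 CPM in the other 4 controls. Without that control the Axl log2 fold change was -1.08, and without Glut1-KO replicate 5 that of Ankrd1 was -3.92.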

How the results depend on the processing

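Signs of the log2 fold changes of Cyr61, Ctgf, Ankrd1, Amotl2, Ajuba, Tead1 and Axl held under every alternative run on them. The count of genes called, 0 in each direction by limma, was 110 higher and 105 lower by DESeq2, 1 and 2 with sex as a covariate, 1 and 0 with male libraries only, and 2 and 5 with the female Glut1-KO libraries only. Leaving out single libraries gave 0 higher and 0 to 1 lower, the 1 being Cyr61 without control replicate 3. Cyr61 was chosen on this contrast, so nothing is read from that call. The log2 fold change of Slc2a1 went to 0.0613 with sex as a covariate and to 0.0611 with male libraries only, and ranged from -0.81 to -0.42 with single libraries left out. The count of members lower without overlap was 4 with female Glut1-KO libraries only and 2 to 3 with single libraries left out. Ctgf moved to -0.71 and Lats2 to -0.21 with sex as a covariate. With that covariate the list medians moved from 0.05 to -0.05 (hippo), from -0.11 to 0.09 (SRF) and from -0.41 to -0.71 (immediate-early). Causes were not tested. A mean TPM of at least 20, the filter of the study, dropped Ankrd1 and Lats2. Replicate numbers did not pair the libraries (correlations of deviations between same numbers ran from -0.13 to 0.20), and the replicate block gave 0 calls, -3.05 for Ankrd1 and -2.18 for Axl. Depth limits Ankrd1, with as few as 10 counts in a library.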

Other observations

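Lats2 varied from library to library together with several marker sums, among them that of alveolar type 1 (AT1) cells. The summed level of 10 AT1 markers, led by Ager, was 1850 to 2822 CPM in controls and 1792 to 3579 CPM in the libraries labelled Glut1-KO, and 6 of the 10 had a negative log2 fold change. The library with the lowest sum (1792 CPM) had 31.7 CPM of Lats2, and the one with the highest (3579 CPM) had 44.8 CPM. Pearson r was 0.75 over all libraries and 0.75 within groups (n = 10, libraries that share depth and cell makeup, a description). Within groups r was higher with the immediate-early sum (0.85, against 0.47 over all libraries), and it was 0.69 with the leukocyte, 0.65 with the ciliated, 0.63 with the AT2 and -0.68 with the fibroblast sum. Subtracting group means leaves the sex split of the Glut1-KO label in these values. Its female libraries had 38.1 to 53.1 CPM of Lats2 and immediate-early sums of 6589 to 7369 CPM. Its male pair had 32.5 and 31.7 CPM of Lats2, with sums of 5109 and 4608 CPM. The part of sex was not tested.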
